A study of Mus musculus with 12 samples.

Results

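Collagens are the chief structural proteins of the extracellular matrix. Their chains wind around each other into helical trimers, which assemble into fibrils, sheet-like networks or fine filaments according to the collagen type. In the gut wall, fibroblasts and smooth muscle cells deposit the fibrillar collagens, and a network of type IV collagen underlies the epithelium and the vessels. The collagen genes were taken as all probe sets whose platform annotation names exactly 1 gene with a symbol of the form Col, number, a, number (Col1a1 and so on). This gave 43 genes, with 1 probe set each, among the 23991 probe sets of the array, which name 21408 genes singly. The rule reads gene names alone.

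The arrays measured RNA of whole small intestine, taken 14 days after wild-type BALB/c recipients were given an allogeneic graft. Every recipient had been irradiated over the whole body and had received C57BL/6N marrow together with donor T cells, which can attack the host's gut; both groups share this conditioning and graft. On 6 arrays the recipients had been given daily intraperitoneal injections of 200 mg/kg tauroursodeoxycholic acid (TUDCA), a taurine-conjugated bile acid also used as a chemical chaperone. On the other 6 arrays they had been given the same 200 µl of vehicle. Sex, age and the segment of intestine are not given in the sources used here. Host and donor-derived cells of the tissue were measured together.

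The description field of the labels names CXCL12-abundant reticular cells, while the source and tissue fields name small intestine. Of 11 epithelial markers 10 were measured, and all 10 lay above the median level of the probe sets (log2 of 5.93). Their mean log2 level ran from 11.85 to 12.08 on the TUDCA arrays and from 11.82 to 12.08 on the vehicle arrays. Of 6 reticular cell markers 2 lay below that median, and none passed the test. Array medians lay between 5.90 and 5.95 and correlations between arrays between 0.984 and 0.993. Sample numbers in the labels fall into a low range (2 TUDCA and 4 vehicle arrays) and a high range (4 TUDCA and 2 vehicle arrays), and the fit held a term for them. Precision is limited by the 6 arrays a group, and no detection calls come with the log2 values.

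No collagen gene passed the test between TUDCA and vehicle. With limma and Benjamini-Hochberg adjustment over all probe sets, 0 of 43 were higher and 0 lower at an adjusted p of 0.05, and the lowest adjusted p among them was 0.307 (Col28a1). Over the whole array 2.52% of probe sets passed (1.00% higher and 1.52% lower), and 4.57% of those at or above the median level, so a count of 0 in a family of this size lies near the background and is not a result about collagens by itself. At an unadjusted p under 0.05 there was 1 collagen, Col28a1, against 14.1% of all probe sets. In no collagen did the values of the groups separate, against 1.98% of all probe sets. The sizes were small as well: log2 differences ran from −0.26 (Col14a1) to 0.24 (Col28a1), with a median of −0.01 over the 43 collagens and 0.01 over all probe sets. Their median absolute difference was 0.05, and over all probe sets it was 0.09. A total of 20 collagens lay above 0 (53.3% of all probe sets did).

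The 95% intervals show how large a change these arrays could have missed. For 41 of the 43 collagens the interval lay wholly within 0.5 log2 units on either side of 0. The other two were Col14a1, whose interval reached −0.56, and Col6a5, whose interval reached 0.61. Standard errors ran from 0.06 to 0.21. A total of 17 collagens lay below the median level of the probe sets, where differences are compressed, so that these intervals say less about the transcripts of those 17 genes. In whole tissue, fewer cells of a type and less RNA per cell cannot be told apart.

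**Figure D1:**
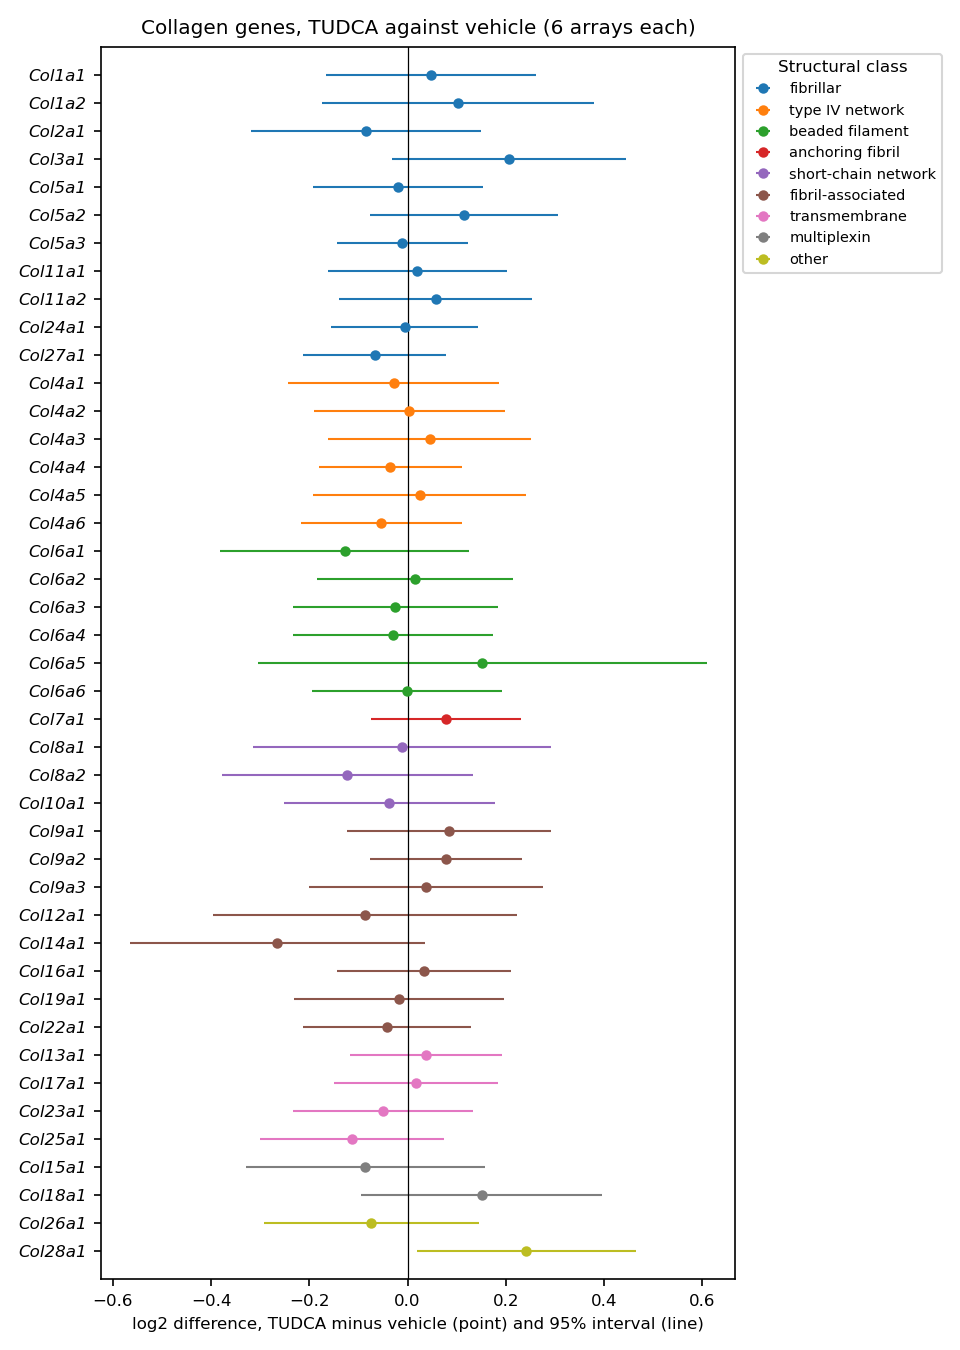
Log2 differences (TUDCA minus vehicle, x axis) with 95% intervals from limma for all 43 collagen genes (y axis), coloured by structural class. The points run from −0.26 (Col14a1) to 0.24 (Col28a1), and every interval but that of Col28a1 covers 0.

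Type I collagen is the main fibril former of interstitial tissue, and Col1a1 and Col1a2 encode its chains. Col1a1 had log2 values of 9.27 at the lowest, 9.55 at the median and 9.92 at the highest under TUDCA, against 9.30, 9.50 and 9.69 under vehicle. The vehicle range lay inside the TUDCA range, and the difference was 0.05 (95% interval −0.17 to 0.26, limma adjusted p = 0.892). Col1a2 ran from 8.75 through a median of 9.19 to 9.63 under TUDCA and from 8.87 through 9.12 to 9.31 under vehicle. Its lowest and its highest array were both TUDCA arrays, and the difference was 0.10 (95% interval −0.18 to 0.38, limma adjusted p = 0.792).

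Type III collagen, encoded by Col3a1, forms fine fibrils together with type I in extensible tissues such as gut and vessels. Its log2 values were 9.27 at the lowest, 9.55 at the median and 9.94 at the highest under TUDCA and 9.03, 9.38 and 9.51 under vehicle. TUDCA replicates 1, 3 and 5 exceeded every vehicle array, and the other TUDCA arrays overlapped with them. With 0.21 ± 0.11 (SE) Col3a1 had the highest difference among the fibrillar collagens, and it did not pass (95% interval −0.03 to 0.45, limma adjusted p = 0.44). The difference was 0.23 in the low number range and 0.19 in the high one.

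Type V collagen seeds fibrils and limits their width. For Col5a1 the TUDCA arrays ran from 7.47 through a median of 7.57 to 7.91 and the vehicle arrays from 7.55 through 7.66 to 7.70, a difference of −0.02 (limma adjusted p = 0.949). For Col5a2 the TUDCA arrays ran from 6.84 through 7.05 to 7.26 and the vehicle arrays from 6.71 through 6.87 to 7.11, a difference of 0.11 (95% interval −0.08 to 0.31, limma adjusted p = 0.635). Both genes had overlapping groups. The remaining 6 fibrillar collagens, Col2a1, Col5a3, Col11a1, Col11a2, Col24a1 and Col27a1, had differences from −0.08 to 0.06, and all 11 fibrillar collagens were measured.

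**Figure D2:**
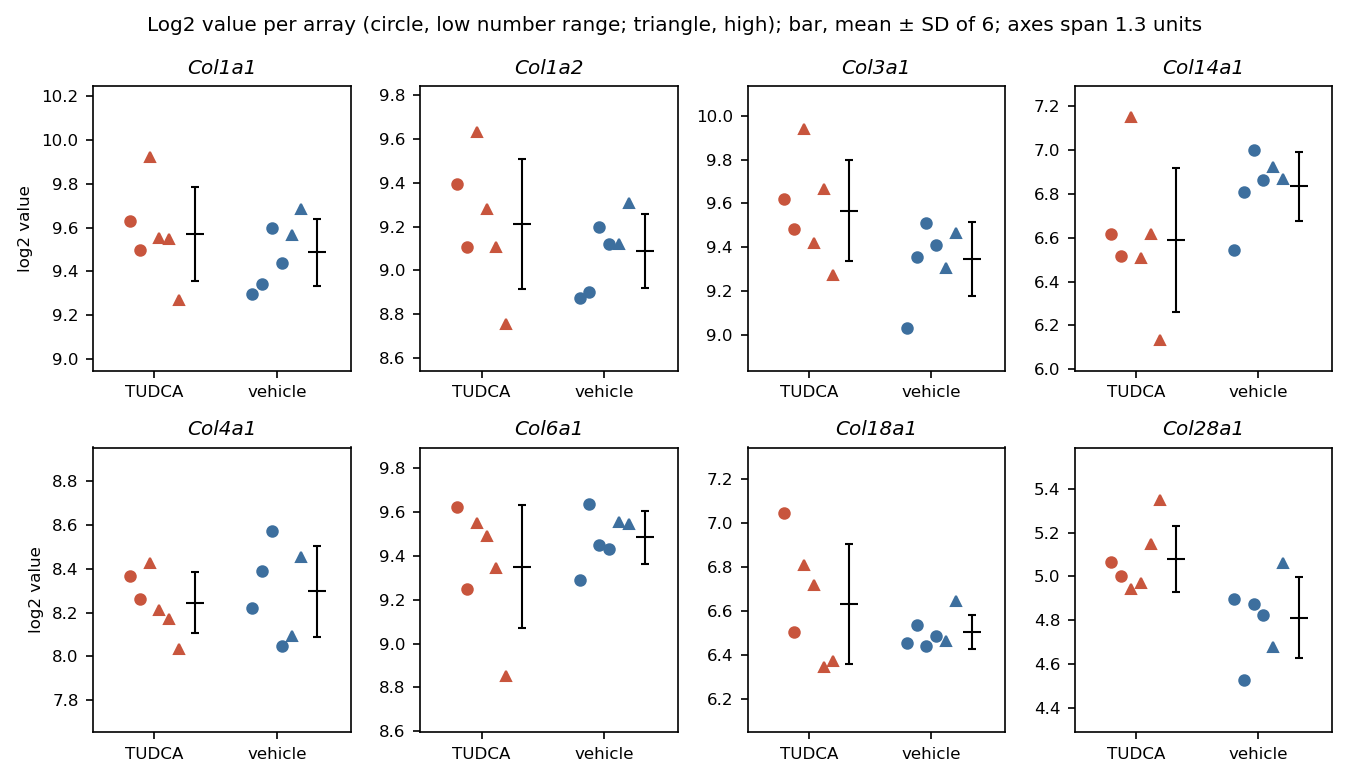
Log2 value on each array (y axis, the same span in each panel) for 8 collagen genes under TUDCA and under vehicle; circles are arrays of the low number range, triangles of the high range, and bars give mean ± SD of 6 arrays. The groups overlap in every panel, with TUDCA medians of 9.55 for Col3a1 and 6.57 for Col14a1 and vehicle medians of 9.38 and 6.87.

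Type IV collagen forms the network of basement membranes. Col4a1 and Col4a2 encode the chains of its most widespread trimer. They lie head to head and, in the RefSeq annotation, start on opposite strands, 22 bases apart counting both starts. Col4a2 starts on the plus strand at the lower coordinate and Col4a1 on the minus strand at the higher one. By these starts the 22 bases are part of both transcripts and not a gap between them. Any part of this layout in how both genes vary was not tested. The stretch between both starts is shown because the starts of this pair, which varied together across arrays, lie so close (build GRCm38.p6, plus strand, chr8:11312801-11312830, capitals marking the bases from the Col4a2 start to the Col4a1 start):
Col4a1 and Col4a2: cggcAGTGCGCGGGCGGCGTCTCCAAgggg

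Col4a1 ran from 8.04 through a median of 8.24 to 8.43 under TUDCA and from 8.05 through 8.31 to 8.57 under vehicle, a difference of −0.03 (95% interval −0.24 to 0.19, limma adjusted p = 0.942). Col4a2 ran from 7.49 through 7.81 to 8.04 under TUDCA and from 7.67 through 7.83 to 7.96 under vehicle, a difference of 0.00 (95% interval −0.19 to 0.20, limma adjusted p = 0.994). Groups overlapped nearly fully for both. Col4a3, Col4a4, Col4a5 and Col4a6, the chains of more restricted basement membranes, had differences from −0.05 to 0.04. Of the 6 type IV genes 3 lay below the median level.

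Type VI collagen forms beaded microfilaments around cells and links them to the interstitial matrix. Col6a1 had log2 values of 8.85, 9.42 and 9.62 (lowest, median and highest) under TUDCA and 9.29, 9.50 and 9.64 under vehicle. The lowest value was that of TUDCA replicate 6, and the difference was −0.13 (95% interval −0.38 to 0.13, limma adjusted p = 0.701). Col6a2 ran from 7.77 through 8.12 to 8.37 under TUDCA and from 8.01 through 8.13 to 8.23 under vehicle (difference 0.01, limma adjusted p = 0.972). Col6a3, the long chain of the trimer, ran from 7.87 through 8.34 to 8.54 under TUDCA and from 8.26 through 8.38 to 8.50 under vehicle (difference −0.03, limma adjusted p = 0.947). In all these chains the TUDCA range was the wider one.

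Col6a5, which encodes an alternative chain of type VI collagen, varied most between arrays. It ran from 5.51 through 6.15 to 6.80 under TUDCA and from 5.61 through 5.85 to 6.68 under vehicle, with a difference of 0.15 ± 0.21 (SE; limma adjusted p = 0.814). The difference was 0.52 in the low number range and −0.21 in the high one. Over both ranges it was −0.11 without TUDCA replicate 1 and 0.40 without vehicle replicate 5. The related Col6a4 was at −0.03, and Col6a6 was at −0.00081.

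Fibril-associated collagens bind to the surface of fibrils and connect them to other matrix. Col14a1 had the lowest difference of the family. Its log2 values were 6.13, 6.57 and 7.15 (lowest, median and highest) under TUDCA and 6.54, 6.87 and 6.999 under vehicle. All TUDCA arrays but replicate 3 lay below 5 of the 6 vehicle arrays, whereas TUDCA replicate 3 was the highest of all 12. The difference was −0.26 ± 0.14 (SE; 95% interval −0.56 to 0.04, limma adjusted p = 0.429), and without TUDCA replicate 3 it was −0.35 (limma adjusted p = 0.111).

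Col12a1, a relative of Col14a1 found in tissue under tension, ran from 7.05 through 7.59 to 8.06 under TUDCA and from 7.53 through 7.67 to 8.05 under vehicle. The difference was −0.09 (95% interval −0.40 to 0.22, limma adjusted p = 0.851), and its lowest and its highest array were both TUDCA arrays. Another 6 genes of this class, Col9a1, Col9a2, Col9a3, Col16a1, Col19a1 and Col22a1, had differences from −0.04 to 0.08, and Col20a1 was not analysed here. Of the 8 measured, 4 lay above 0 and 4 below.

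Collagens of epithelial and vascular borders were also close to 0. Col7a1, which encodes the anchoring fibrils under stratified epithelia, ran from 5.78 through 5.93 to 6.03 under TUDCA and from 5.73 through 5.80 to 5.90 under vehicle (difference 0.08, 95% interval −0.07 to 0.23, limma adjusted p = 0.693). Col17a1, a transmembrane collagen of hemidesmosomes, ran from 5.39 through 5.63 to 5.74 under TUDCA and from 5.53 through 5.57 to 5.69 under vehicle (difference 0.02, limma adjusted p = 0.958). Both lay below the median level of the probe sets, and their groups overlapped.

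The multiplexins Col15a1 and Col18a1 encode collagens of basement membrane zones, and the end of the Col18a1 product gives rise to the angiogenesis inhibitor endostatin. Col15a1 ran from 6.08 through 6.26 to 6.49 under TUDCA and from 5.93 through 6.33 to 6.57 under vehicle (difference −0.09, limma adjusted p = 0.802). Col18a1 ran from 6.35 through 6.61 to 7.05 under TUDCA and from 6.44 through 6.47 to 6.65 under vehicle. Its values under vehicle were close together (SD 0.08), those under TUDCA were not (SD 0.27), with replicate 1 at the top. The difference was 0.15 (95% interval −0.09 to 0.40, limma adjusted p = 0.623) and 0.01 without TUDCA replicate 1.

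Col28a1, a collagen known from nerve, had the highest difference of the family and the lowest p. Its log2 values were 4.94, 5.03 and 5.35 (lowest, median and highest) under TUDCA and 4.53, 4.85 and 5.06 under vehicle, all below the median level. A total of 5 vehicle arrays lay below every TUDCA array, and vehicle replicate 6 lay among the TUDCA arrays. The difference was 0.24 ± 0.10 (SE; 95% interval 0.02 to 0.46, limma adjusted p = 0.307), with 0.25 in the low number range and 0.23 in the high one.

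A pair of less studied collagens completes those with the largest differences. The short-chain collagen Col8a2 ran from 5.31 through 5.50 to 5.61 under TUDCA and from 5.31 through 5.51 to 5.95 under vehicle (difference −0.12, limma adjusted p = 0.719). The transmembrane collagen Col25a1 ran from 6.22 through 6.32 to 6.47 under TUDCA and from 6.12 through 6.44 to 6.59 under vehicle (difference −0.11, limma adjusted p = 0.629). Their groups overlapped. The members not yet named, Col8a1, Col10a1, Col13a1, Col23a1 and Col26a1, lay between −0.07 and 0.04.

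The sign of a collagen difference often differed between the number ranges, but no interaction passed the test. A total of 23 of 43 collagens had opposite signs in the low and the high range, as did 44.7% of all probe sets. In limma, 0 collagens passed a test of the interaction between treatment and number range, with 0.00% of all probe sets past the threshold. At an unadjusted p under 0.05 there was 1, against 7.68% of all probe sets. It was Col26a1, singled out after its values were seen, with differences of 0.20 in the low and −0.35 in the high range (adjusted p = 0.516).

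Some of the 6 chosen pairs of collagen chains varied together from array to array. Correlations of other pairs of probe sets were not computed as a background. Within treatment and number range, Col1a1 and Col1a2 correlated across the 12 arrays with Pearson's r = 0.97 (exact permutation within treatment and range, two-sided, p = 0.000434, the smallest these 2304 permutations can give, adjusted over 6 pairs 0.0026) and Spearman's rho = 0.99 (exact permutation p = 0.000868, adjusted 0.00521). Col1a1 and Col3a1, which build mixed fibrils, had r = 0.90 (exact permutation p = 0.00347, adjusted 0.00694) and rho = 0.81 (exact permutation p = 0.00608, adjusted 0.0122). Col4a1 and Col4a2 had r = 0.83 (exact permutation p = 0.00347, adjusted 0.00694) and rho = 0.86 (exact permutation p = 0.00347, adjusted 0.0104).

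The relation of the type I chains held without the 2 arrays farthest from the median of Col1a1, TUDCA replicates 3 and 6 (r = 0.89, exact permutation p = 0.00521, the smallest the remaining permutations can give, adjusted 0.0312). Without them the value was 0.77 for Col1a1 and Col3a1 (exact permutation p = 0.0521, adjusted 0.104), so that this relation passed only with those arrays. Without vehicle replicates 3 and 6 it was 0.81 for Col4a1 and Col4a2 (exact permutation p = 0.0278, adjusted 0.0833), which passed before adjustment alone. With 10 arrays fewer permutations exist and small p-values are harder to reach. The part of this in the lost calls was not tested. The 12 arrays share their normalisation, and the pairs were chosen as chains of 1 trimer or fibril.

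The type VI and type V pairs were less stable or did not pass. Col6a1 and Col6a2 had r = 0.88 (exact permutation p = 0.0312, adjusted 0.0469) and rho = 0.79 (exact permutation p = 0.0417, adjusted 0.0625), and without TUDCA replicates 2 and 6 r was 0.34 (exact permutation p = 0.434), so the relation rests on those arrays. Col6a1 and Col6a3 had r = 0.72 (exact permutation p = 0.104, adjusted 0.124) and rho = 0.24 (exact permutation p = 0.538), and r was 0.53 without the same 2 arrays (exact permutation p = 0.215). Col5a1 and Col5a2 had r = 0.43 (exact permutation p = 0.28) and rho = 0.42 (exact permutation p = 0.289), and r was −0.37 without TUDCA replicates 2 and 3 (exact permutation p = 0.49).

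**Figure D3:**
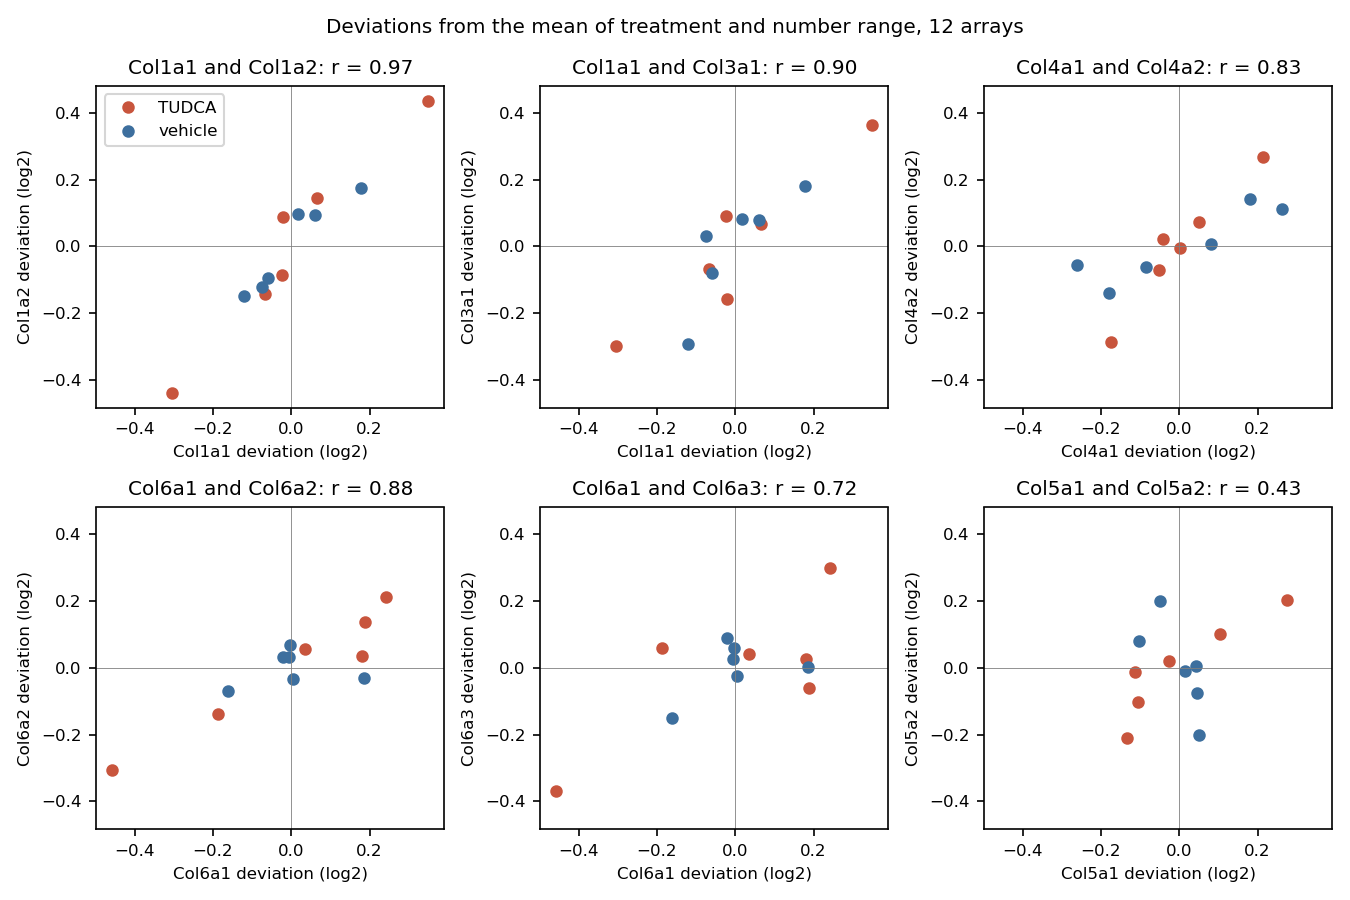
Deviations of paired collagen chains from the mean of their treatment and number range (log2, both axes), 1 point per array, 12 arrays. Col1a1 and Col1a2 lie along a line (r = 0.97), with TUDCA replicates 3 and 6 at its ends, while Col5a1 and Col5a2 scatter (r = 0.43).

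Col1a2 and Col3a1 correlated with Col1a1 over all 12 arrays, Col3a1 only with TUDCA replicates 3 and 6 included. The bases before the starts of Col1a2 and Col3a1 are shown (RefSeq, build GRCm38.p6, plus strand, 250 bases each, Col1a2 at chr6:4505368-4505617 and Col3a1 at chr1:45311288-45311537). Those of Col1a1 are not shown. Capitals mark exact matches, searched on both strands, to a CCAAT box (letters CCAAT), a GC box (letters GGGCGG) and a TATA box (letters TATAAA). No match overlaps another here:
Col1a2: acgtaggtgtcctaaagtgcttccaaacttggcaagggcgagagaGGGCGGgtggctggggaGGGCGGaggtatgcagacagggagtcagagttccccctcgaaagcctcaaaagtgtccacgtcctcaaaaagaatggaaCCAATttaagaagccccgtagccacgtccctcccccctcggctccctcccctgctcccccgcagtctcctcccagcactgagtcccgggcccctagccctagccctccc
Col3a1: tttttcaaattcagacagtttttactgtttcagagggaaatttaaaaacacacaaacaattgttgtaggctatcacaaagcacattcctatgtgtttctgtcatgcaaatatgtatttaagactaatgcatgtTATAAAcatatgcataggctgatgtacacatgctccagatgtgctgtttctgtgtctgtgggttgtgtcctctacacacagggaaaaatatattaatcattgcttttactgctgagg

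The Col1a2 window held 1 CCAAT box, with its first base 109 bases before the start, and GC boxes at 205 and 188 bases before it. The Col3a1 window held 1 match to the TATA box letters, at 117 bases. Among all 32851 windows of this length in the RefSeq table, 33.8% held a CCAAT box, 32.7% a GC box and 12.4% a TATA box on either strand. Among the 37 windows of the 34 collagens with an entry, 13 held a CCAAT box, 22 a GC box and 5 a TATA box. These are matches of letters, and any part of them in the shared variation was not tested.

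Among the brighter collagens, a pair of TUDCA arrays marked the ends of this shared variation. Among the 26 collagens at or above the median level, TUDCA replicate 3 was the highest of the 12 arrays in 12 (46.2%, against 7.81% of all 11996 probe sets at that level) and TUDCA replicate 6 the lowest in 11 (42.3%, against 20.0%). The mean deviation of these collagens from their own means was 0.18 on TUDCA replicate 3 and −0.20 on TUDCA replicate 6, with the vehicle arrays between −0.12 and 0.08. The 17 collagens below the median level did not share this. Their mean deviation was 0.01 on TUDCA replicate 3 and 0.11, the highest of the 12 arrays, on TUDCA replicate 6. The SD over arrays was larger under TUDCA than under vehicle in 19 of the 26, with medians of 0.17 under TUDCA and 0.13 under vehicle. It was larger in 51.8% of all probe sets at that level. Without those TUDCA arrays, which were left out for being extreme, the SD was larger under TUDCA in 11 of 26 (42.3%, against 39.9% of all probe sets at that level), with a median of 0.12 for the collagens and for all probe sets.

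Of the marker lists of other cells, the fibroblast list had its extremes on the same arrays. The mean deviation of the 12 fibroblast markers was 0.23 on TUDCA replicate 3 and −0.32 on TUDCA replicate 6, with the vehicle arrays between −0.13 and 0.16. For the 10 endothelial markers it was 0.13 and −0.47 on these TUDCA arrays, and up to 0.31 on a vehicle array. For the 5 pericyte markers it was 0.10 and −0.32 (vehicle arrays up to 0.27), and for the 5 macrophage markers 0.06 and −0.54 (vehicle arrays up to 0.32). TUDCA replicate 6 was thus the lowest array in these lists, while TUDCA replicate 3 was not the highest in the endothelial, pericyte and macrophage lists. The 9 smooth muscle markers stood at 0.14 and −0.27, inside the span of the vehicle arrays (−0.43 to 0.33). The 2 measured markers of enteric glia stood at 0.40 and 0.10, and the 6 reticular cell markers at 0.19 and 0.01. The part of these cells in the collagen values was not tested. The swing was not particular to collagens and fibroblast markers. Among the companion lists described below, interstitial matrix partners (0.23 and −0.28), basement membrane partners (0.20 and −0.32) and folding enzymes (0.12 and −0.15) also had both extremes on TUDCA replicates 3 and 6. The processing, breakdown, receptor and TGF-beta lists did not have both extremes there.

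**Figure D4:**
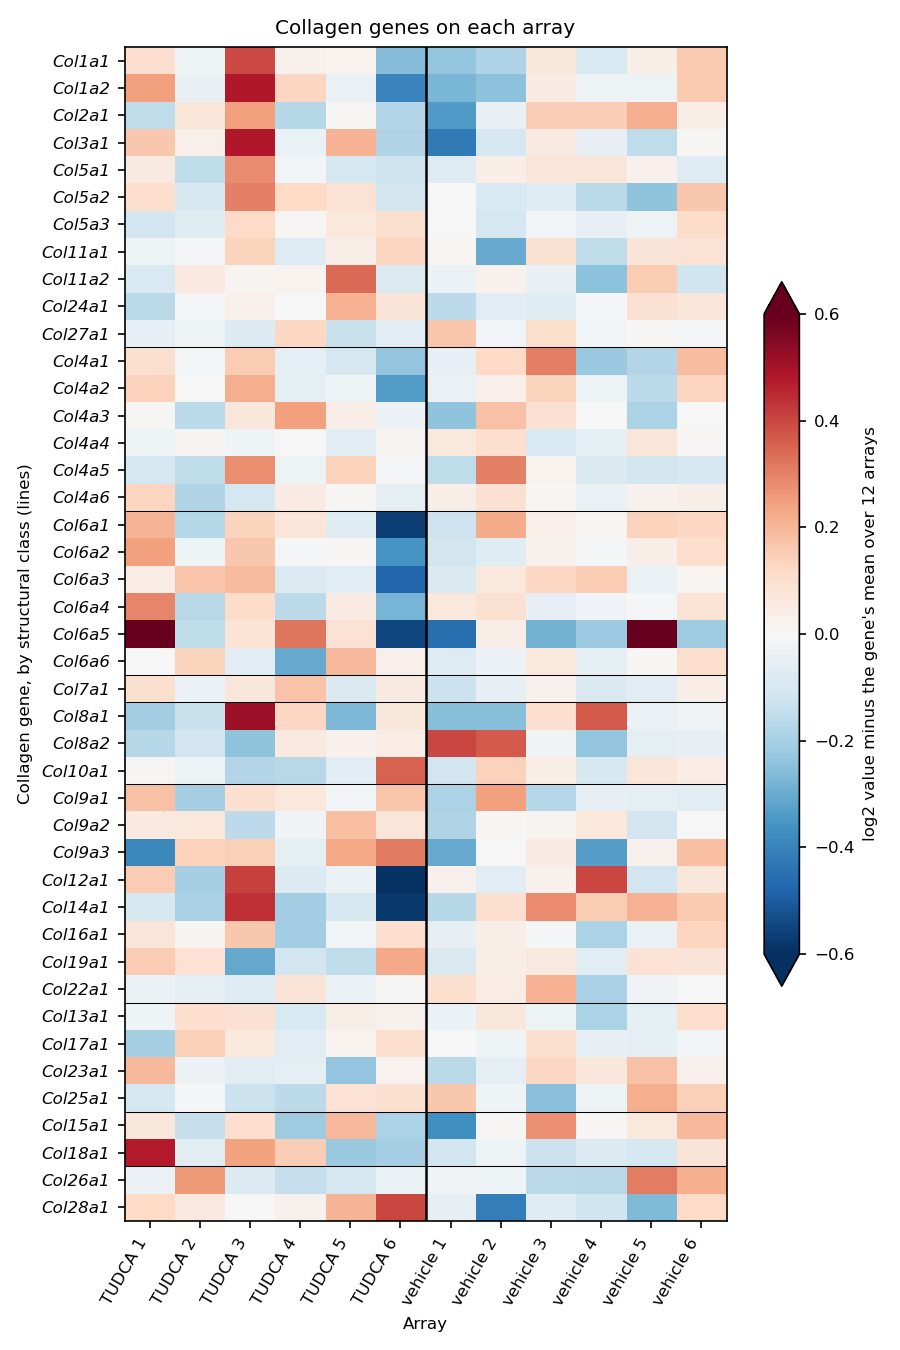
Log2 value minus the gene's mean over 12 arrays (colour) for each collagen gene (rows, by structural class) on each array (columns, TUDCA left of vehicle). TUDCA replicate 3 is red and TUDCA replicate 6 blue in the rows of Col1a1, Col1a2, Col3a1, Col4a1, Col4a2, Col6a1 to Col6a3, Col12a1 and Col14a1.

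Between the groups, none of the stromal marker lists had a member past the threshold. All 12 fibroblast markers were measured, with mean log2 levels from 7.61 to 8.16 under TUDCA and from 7.80 to 8.09 under vehicle, and 3 of the 12 lay above 0. Vim, the intermediate filament of mesenchymal cells and leukocytes, was closest to the threshold (−0.38 ± 0.10 SE, limma adjusted p = 0.0543, with 0.0229 under array weights and 0.178 without vehicle replicate 6), while the fibroblast proteoglycan gene Lum was at 0.20 (limma adjusted p = 0.526). The smooth muscle markers had levels from 9.80 to 10.20 under TUDCA and from 9.63 to 10.39 under vehicle, and 0 of 9 lay above 0. The actin gene Actg2 was at −0.36 (limma adjusted p = 0.224). It passed without vehicle replicate 5 (−0.54, limma adjusted p = 0.0169) and with array weights (−0.47, limma adjusted p = 0.0405), and was at −0.23 without vehicle replicate 6. In the same list, the myosin kinase gene Mylk was at −0.24 (limma adjusted p = 0.265).

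Endothelial markers ran from 6.44 to 7.03 under TUDCA and from 6.77 to 7.21 under vehicle, with Plvap, a protein of vessel wall openings, at −0.43 (limma adjusted p = 0.335) and the growth factor receptor gene Kdr at −0.25 (limma adjusted p = 0.475). Pericyte markers ran from 8.13 to 8.55 under TUDCA and from 8.24 to 8.72 under vehicle, with Pdgfrb at −0.20 (limma adjusted p = 0.565) and Cspg4 at −0.15 (limma adjusted p = 0.484). Enteric glia had 2 measured markers, Sox10 and S100b, both below the median level and at 0.01. Macrophage markers ran from 7.98 to 8.61 under TUDCA and from 8.52 to 8.84 under vehicle, with Lyz2 at −0.31 (limma adjusted p = 0.176) and Csf1r at −0.33 (limma adjusted p = 0.325). Among the reticular cell markers, Lepr was at −0.16 (limma adjusted p = 0.594) and Foxc1 at 0.11 (limma adjusted p = 0.735).

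Of the 6 T cell markers 3 fell and none rose, where 1.52% of all probe sets were lower and 1.00% higher. Cd3d (−0.35), Cd2 (−0.32) and Cd4 (−0.25) did not pass. Cd8a fell by 1.03 (limma adjusted p = 0.0187), Cd3e fell by 0.93 (limma adjusted p = 0.0137) and Cd3g fell by 0.96 (limma adjusted p = 0.0480). Cd8a also passed in the low number range alone (−1.47, limma adjusted p = 0.0262) and not in the high one alone (−0.59, limma adjusted p = 0.333). Cd3e passed in neither range alone (−1.14, limma adjusted p = 0.0713, in the low one and −0.71, limma adjusted p = 0.219, in the high one). The call of Cd3g ended without any 1 of the 12 arrays (limma adjusted p up to 0.114). Among the 10 epithelial markers 1 rose, the keratin gene Krt8 (0.28, limma adjusted p = 0.0169), where 1.00% of all probe sets were higher. The call of Krt8 ended without TUDCA replicate 1 (limma adjusted p = 0.0642) or TUDCA replicate 2 (0.0853) and without the number range term (0.15). The part of these cells in the collagen values was not tested.

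Companion genes were taken from 7 lists: collagen folding, processing, breakdown, receptors, interstitial matrix partners, basement membrane partners and TGF-beta signalling. Of 127 genes in these lists, 117 were measured, and 2 of them passed (1.71%, against 2.52% of all probe sets), 1 higher and 1 lower. This share lies near the background and is not a result about these genes by itself. Of 20 measured enzymes and chaperones of collagen folding none passed, over a median difference of 0.06. The 2 with the smallest p were Creb3l1, a transcription factor that drives collagen secretion in bone (0.40 ± 0.13 SE, limma adjusted p = 0.151), and Fkbp14, a prolyl isomerase of the endoplasmic reticulum (0.31 ± 0.11 SE, limma adjusted p = 0.202). Creb3l1 ran from 7.77 through a median of 8.08 to 8.60 under TUDCA and from 7.59 through 7.79 to 8.15 under vehicle, and its difference was 0.70 in the low range and 0.10 in the high one. The gene passed in the low range alone (limma adjusted p = 0.0189), without vehicle replicate 5 (0.58, limma adjusted p = 0.0080) and with array weights (0.47, limma adjusted p = 0.0386).

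Of 12 genes of procollagen processing and cross-linking none passed, with a median difference of −0.04. The procollagen peptidase gene Adamts3 was at −0.33 (limma adjusted p = 0.195) and the transglutaminase gene Tgm2 at −0.28 (limma adjusted p = 0.189), with −0.14 for Tgm2 without vehicle replicate 5. Of 19 genes of collagen breakdown and its inhibitors none passed, with a median of −0.06. The epithelial matrix metalloproteinase gene Mmp7 was at 0.21 (limma adjusted p = 0.537) on its brighter probe set and at 0.16 on the other, which lay below the median level. The gelatinase gene Mmp9 was at −0.33 (limma adjusted p = 0.445) and at −0.14 without vehicle replicate 6. Without vehicle replicate 5 Mmp7 was at 0.41 (limma adjusted p = 0.0209), and without vehicle replicate 6 it was at 0.026.

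Among 10 collagen receptor genes none passed and 3 lay above 0, with a median of −0.11. The receptor tyrosine kinase gene Ddr1 ran from 8.46 through a median of 8.58 to 8.75 under TUDCA and from 8.67 through 8.85 to 8.90 under vehicle, with all 6 TUDCA arrays below the vehicle mean of their number range (−0.23 ± 0.07 SE, limma adjusted p = 0.105). Its other probe set, with mean log2 levels of 4.91 under TUDCA and 4.85 under vehicle, lay below the median level and was at 0.02. Itga1, a subunit of a collagen-binding integrin that is also carried by intraepithelial T cells, was at −0.24 (limma adjusted p = 0.307). Among 22 interstitial matrix partners none passed, with a median of −0.04. The microfibril gene Fbn2 was at 0.27 (limma adjusted p = 0.0946) and the fibronectin gene Fn1 at −0.33 (limma adjusted p = 0.335).

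The 2 genes that passed belong to the lists of basement membrane partners and of TGF-beta signalling. Lamb3, a laminin chain of epithelial basement membranes, rose: its log2 values were 8.84, 8.99 and 9.12 (lowest, median and highest) under TUDCA and 7.71, 8.41 and 8.90 under vehicle. All TUDCA arrays lay above 5 of the 6 vehicle arrays, and the difference was 0.65 ± 0.16 (SE, limma adjusted p = 0.045). The call held without vehicle replicate 1 or vehicle replicate 6 and ended without any 1 of the other 10 arrays (limma adjusted p up to 0.105), and without vehicle replicate 5 the difference was 0.43. No other measured basement membrane partner passed, and the median of the 17 was −0.02, with 7 above 0. Lama3, another laminin chain, was at 0.56 (limma adjusted p = 0.121).

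Tgfbi, a secreted matrix protein that binds collagens and is induced by TGF-beta, fell. Its log2 values were 10.39, 10.79 and 10.85 (lowest, median and highest) under TUDCA and 11.27, 11.37 and 11.44 under vehicle, and the groups did not overlap (1.98% of all probe sets). The difference was −0.70 ± 0.08 (SE, limma adjusted p = 0.000554), and the call stayed whichever array was left out (limma adjusted p up to 0.00247). No other measured TGF-beta gene passed, and the median of the 17 was −0.03.

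**Figure D5:**
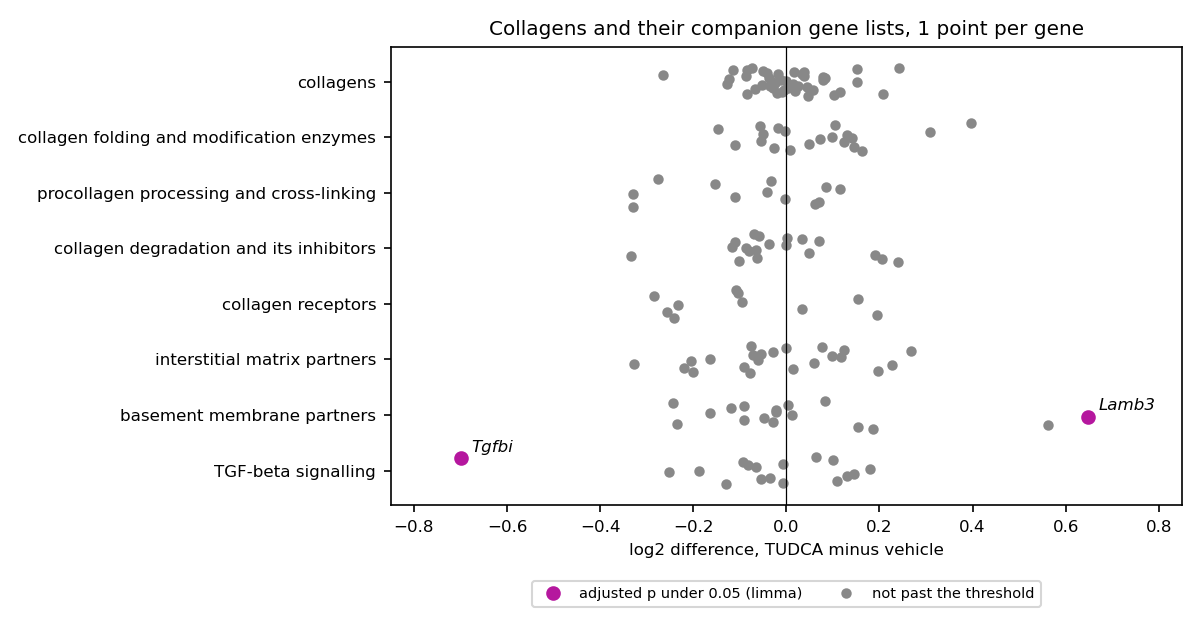
Log2 differences (TUDCA minus vehicle, x axis) of the collagens and of 7 lists of companion genes (y axis), 1 point per gene. Collagens lie between −0.26 and 0.24, and the coloured points are the genes past the threshold, Lamb3 at 0.65 and Tgfbi at −0.70.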

How the data were processed

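The values are log2 levels that the authors deposited for each probe set on each array. Per the submitters' processing notes they come from oligo with RMA, which corrects background, equalises the arrays by quantiles and summarises probes; versions and further steps are not given in the sources used here, and a shift common to all transcripts cannot be seen. The platform annotation gave 1 gene for 21557 probe sets, several for 787 and none for 1647, and symbols were updated by Entrez ID through RefSeq.

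All probe sets entered limma 3.58.1 in R 4.3.3 (lmFit, eBayes with trend) with treatment and number range as terms. Tests were two-sided, with Benjamini-Hochberg adjustment over the table and a threshold of 0.05, and the code was checked on simulated data. What the number ranges stand for is not given, nor whether each array is a separate mouse, so p-values measure the spread between these samples. No filter on low values was set. The collagen rule reads names alone, but the family and the lists were chosen with earlier results of these data known. Described in full were collagens past the threshold, the 10 with the largest differences and a fixed set of common ones; in other lists, up to 4 genes past the threshold, or else the 2 with the smallest p. A gene with several probe sets is given by the brightest. The alternatives are in the closing section.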

Additional observations from a re-analysis of the deposited data

Results flagged for a closer look

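In the 40 sets of 6 arrays formed by the 20 collagens named in full, 2 arrays stood far from the others by Dixon's test, at a level at which chance picks out about 1 in 20. Col12a1 was at 8.05 on vehicle replicate 4, with the next array at 7.72. Col17a1 was at 5.69 on vehicle replicate 3, with the next array at 5.59.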

How the results depend on the processing

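The collagen counts stayed at 0 higher and 0 lower under all 25 alternatives: no number range term, the replicate number as a block, each range alone, dim probe sets left out, renewed normalisation or centring, other eBayes settings, array weights, 1 mean per gene, a threshold of 0.1, and each array left out. Over all probe sets, 241 were higher and 364 lower. These counts were 85 and 190 with the replicate block and number range, and 6 and 3 in the high range alone. Array weights gave 436 higher, the threshold of 0.1 gave 429 higher, and leaving out arrays gave 91 to 292 higher and 151 to 417 lower, with 91 and 151 without TUDCA replicate 1, 107 and 189 without TUDCA replicate 2, 147 and 240 without vehicle replicate 6, and 157 higher without vehicle replicate 3, with nearly the same number without vehicle replicate 2. Whether the replicate numbers pair the samples is not known. Of 6 same-numbered pairs, 3 had deviations correlating over 0.1 (range −0.06 to 0.26). For 4 of 6 TUDCA arrays the best correlation was with the vehicle array of their own number. Only treatment means were removed from these deviations, and some same-numbered arrays share a number range, so the values cannot decide about pairing. Companion genes, 1 higher and 1 lower, numbered 0 higher with the replicate block and number range, without trend, with robust eBayes and in the high range alone. They numbered 2 higher at the threshold of 0.1, and 0 to 2 higher and 1 to 2 lower with an array left out. Lower ones numbered 3 with the replicate block alone, 2 in the low range and 0 in the high range. The call of Lamb3 ended with the replicate block and number range together (adjusted p = 0.145) and held with the block alone (0.60, adjusted p = 0.0269). It also ended within either range, without trend, with robust eBayes and with array weights. The call of Tgfbi ended in the high range alone (−0.65, adjusted p = 0.109).

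Of 496 alternative values of the named collagens 36 changed sign, in 11 genes, and none passed the threshold. Without the number range term Col4a2 was −0.022, also with the replicate block alone. With the replicate block and number range Col15a1 was 0.0093, Col4a2 −0.048, Col6a2 −0.023, S100b −0.059 and Sox10 −0.068. In the low range Col17a1 was −0.033, Col4a1 0.0076, Col6a3 0.042, S100b −0.11 and Sox10 −0.059. In the high range Col1a1 was −0.052, Col1a2 −0.021, Col4a2 −0.036, Col5a1 0.036, Col6a2 −0.12, Col6a5 −0.21 and Col8a2 0.027. With array weights Col17a1 was −0.0097, Col4a2 −0.023 and Sox10 −0.00043. Leaving out arrays gave −0.0031 to 0.10 for Col1a1, −0.087 to 0.048 for Col4a1, −0.039 to 0.066 for Col4a2, −0.067 to 0.033 for Col5a1, −0.071 to 0.070 for Col6a2, −0.069 to 0.037 for Col6a3, −0.11 to 0.40 for Col6a5, −0.035 to 0.094 for Col17a1, −0.024 to 0.049 for S100b and −0.045 to 0.038 for Sox10. Without a change of sign, they gave −0.17 (without TUDCA replicate 3) to −0.0070 (without TUDCA replicate 6) for Col12a1, and −0.013 without TUDCA replicate 2. They gave 0.018 (without TUDCA replicate 1) to 0.18 (without TUDCA replicate 6) for Col1a2, 0.033 to 0.18 for Col5a2, −0.23 to −0.050 for Col6a1 and −0.14 to −0.043 for Col15a1. The correlations ran from 0.67 to 0.96 for Col6a1 and Col6a2, from 0.19 to 0.87 for Col6a1 and Col6a3, and from −0.00034 to 0.72 for Col5a1 and Col5a2. The causes were not tested.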

Other observations

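Of all pairs of collagens, the within-array difference of Col3a1 and Col14a1 had the widest gap between the groups. The pair was singled out after its values were seen and is given without a test. The log2 value of Col3a1 minus that of Col14a1 ran from 2.79 through a median of 2.98 to 3.14 on the TUDCA arrays and from 2.38 through 2.53 to 2.60 on the vehicle arrays, without overlap. Among the 903 pairs of the 43 collagens, 5 (0.554%) had a difference that did not overlap between the groups, against 1.94% of all pairs of probe sets on the array. The others were Col3a1 with Col15a1, Col14a1 with Col1a2, Col3a1 with Col4a2 and Col1a2 with Col6a1. On the same arrays the difference between Col3a1 and Col1a1 ran from −0.14 through −0.00 to 0.12 under TUDCA and from −0.26 through −0.16 to 0.01 under vehicle, and the groups overlapped. A difference within an array does not tell which gene of a pair differed. On their own neither Col3a1 nor Col14a1 passed (limma adjusted p = 0.44 and 0.429).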
